A study of Saccharomyces cerevisiae with 18 samples.

Results

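The genes of ergosterol synthesis and their regulators were followed through 6 yeast strains in which the first enzymes of base excision repair were out of balance. The set was chosen by gene name and comprised 30 genes, from *ERG10* to *ERG4* along the pathway, with the partners of the sterol oxidases, the enzymes that esterify sterol, and the transcription factors *ECM22* and *UPC2*. All 30 genes were measured, by 33 of the 6504 probe sets that carried a single gene name, because *ERG12* had 4 probe sets.

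Each strain was profiled on 3 Affymetrix Yeast Genome S98 arrays, 18 in all, at mid-log growth in galactose medium without uracil and with no added damaging agent. All strains derived from BGY111, a haploid *MATa* GAL+ parent with mutations in *HIS3*, *LEU2*, *URA3*, *TRP1* and *CAN1*. Wild type (WT) and Δ*apn1* (*apn1-1::HIS3*), which lacks the main AP endonuclease, carried the empty galactose-inducible plasmid pYES. WT/p*MAG* and Δ*apn1*/p*MAG* carried pYES-MAG in its place, from which galactose drives the 3-methyladenine glycosylase Mag. Δ*apn1*/p*APN1* held a plasmid with *APN1* beside empty pYES, and Δ*apn1*/p*MAG*/p*APN1*, called the double-plasmid strain from here on, held that plasmid beside pYES-MAG. The paper kept the *APN1* plasmid in its frameshift cultures by leaving out leucine. No strain held that plasmid without *APN1*. All samples were therefore grown on galactose and carried a pYES plasmid, and each group was a single strain. The question was whether unrepaired abasic sites, or the gaps and nicks that follow their incision, came with changed expression of these genes.

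Ergosterol is the main sterol of the yeast plasma membrane. Its synthesis starts from acetyl-CoA, passes through mevalonate to farnesyl diphosphate and squalene, and ends in a series of oxygen- and heme-dependent steps in the endoplasmic reticulum. Ecm22 and Upc2 are related zinc cluster transcription factors that bind sterol regulatory elements and activate *ERG* genes.

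The arrays were checked first. *MAG1* signal was 1.48 to 7.17 on the arrays with p*MAG* and 0.89 to 1.41 on the others, all as log2 signal after robust multi-array averaging (RMA). The lowest of the p*MAG* values, on WT/p*MAG* replicate 2, lay under the lowest array median (1.63). *APN1* signal was 4.57 to 7.96 with p*APN1*, 1.14 to 2.85 in the wild type background, and 2.81 to 4.38 in the null strains without p*APN1*. The 4.57 was on replicate 1 of the double-plasmid strain, and the other p*APN1* arrays read 7.26 to 7.96. The probe set's place relative to the *HIS3* insertion is not given in the sources used here, so it did not check the deletion, and the null strains are named as labelled. The free-text labels of Δ*apn1* replicates 2 and 3 read *apn2* and *apn3*, whereas their source labels read *apn1*, which was followed. Δ*apn1*/p*MAG* replicate 1 had a gap of 7.78 between the 3′ and 5′ *ACT1* probe sets, against 0.65 to 1.82 on the other 17 arrays. Over 69 probe sets for small nuclear, small nucleolar and ribosomal RNA, 7 arrays had a mean signal of 2.07 to 2.58 and the other 11 of 1.73 to 1.90. All 6 arrays of the p*APN1* strains were among those with low small RNA signal, as were WT replicate 1, WT/p*MAG* replicate 2, Δ*apn1* replicate 1 and Δ*apn1*/p*MAG* replicates 2 and 3. The labels name no batch. In bulk RNA, fewer transcripts per cell and fewer expressing cells cannot be told apart.

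Most of the pathway did not pass the thresholds in any strain. A probe set was called when its limma p-value was under 0.05 and its change from wild type was at least 1.5-fold, the thresholds of the study's methods, with p-values adjusted by Benjamini-Hochberg over all 6504 probe sets given beside them. By this rule 6 of the 33 probe sets were called in at least 1 of the 5 strains, against 774 of 6504 (11.9%) over the array. The 6 were *ECM22*, *HMG2*, *ERG8*, *ERG20* and *ERG25* in WT/p*MAG*, and *ERG5* in the p*APN1* strains. A difference among the 6 strains at an adjusted p under 0.05 was found for 1 of the 33 (*ECM22*, F-test adjusted p = 0.0479), against 0.4% of all probe sets (26). This call was close to the threshold. It was lost with the replicate number as a block (adjusted p = 0.0715, limma) and with the methods' unmoderated test, and it held in 2 of the 18 fits that left out an array (WT/p*MAG* replicate 3 or replicate 2 of the double-plasmid strain). At an unadjusted p under 0.05 the F-test gave 4 members (*ERG10*, *HMG2*, *ERG5* and *ECM22*) and 622 of all probe sets.

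**Figure D1:**
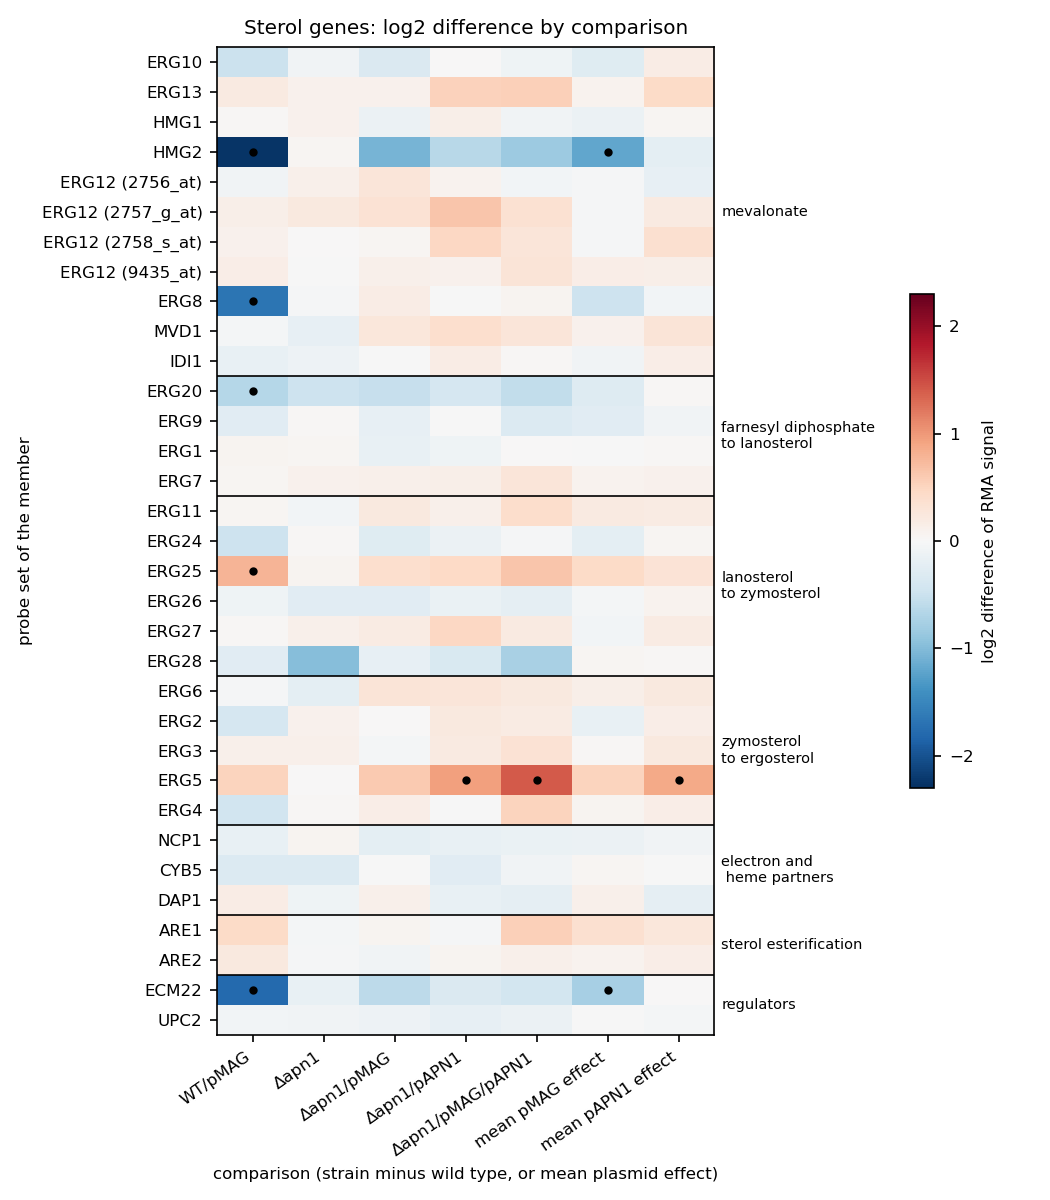
Log2 difference in RMA signal (colour) of the 33 probe sets (rows, by pathway step) in 7 comparisons (columns): 5 strains minus wild type, and the mean p*MAG* and p*APN1* effects. Black dots mark the cells past p under 0.05 and 1.5-fold. Of the 5 strain columns, WT/p*MAG* holds 5 dots, both p*APN1* strains hold 1 each, and Δ*apn1* and Δ*apn1*/p*MAG* hold none.

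*ECM22* fell when Mag was expressed in wild type cells. Its log2 signal was 3.40, 2.75 and 3.03 on the wild type arrays and 0.64, 1.11 and 2.07 on the WT/p*MAG* arrays. Δ*apn1* arrays read 3.09, 2.78 and 2.79, and Δ*apn1*/p*MAG* arrays 2.67, 2.33 and 2.38. It was 3.04, 2.54 and 2.62 in Δ*apn1*/p*APN1*, and 2.79, 2.42 and 2.70 in the double-plasmid strain. All 3 WT/p*MAG* arrays lay below every one of the other 15, whose lowest value was 2.33, and the highest WT/p*MAG* value was 2.07. The WT/p*MAG* array with the low *MAG1* signal (replicate 2) was among the low *ECM22* arrays.

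The difference between WT/p*MAG* and wild type was −1.79 ± 0.28 on the log2 scale (SE, n = 3 against 3, 95% interval −2.39 to −1.19), a 3.45-fold lower signal. The limma adjusted p was 0.0231. *ECM22* was the only member past an adjusted p of 0.05 in this comparison, where 0.0923% of all probe sets were (6). It kept its call at the unadjusted thresholds when each of the 6 arrays was left out in turn (−2.19 to −1.47), but its adjusted p was then under 0.05 in 1 of the 6 fits, with a range of 3.15e-04 to 0.159. With the replicate number as a block it was 0.0502. WT/p*MAG* replicates 1 and 2 read below the array medians, where RMA signal compresses, so the size of the fall is less certain than its direction.

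In the null strains *ECM22* differed less from wild type. The difference was −0.18 for Δ*apn1*, −0.60 for Δ*apn1*/p*MAG* (95% interval −1.20 to 0.00), −0.32 for Δ*apn1*/p*APN1* and −0.42 for the double-plasmid strain, and none was called. All 3 Δ*apn1*/p*MAG* arrays were nevertheless below all wild type arrays. Without Δ*apn1*/p*MAG* replicate 1, the array with the *ACT1* gap, or without WT replicate 2, *ECM22* passed the thresholds there as well. It also did so in 6 of 10 other settings of the fit, which were the replicate block, only the strains compared, repeated quantile normalization, median centring, array weights and a trended robust prior, so the Δ*apn1*/p*MAG* value lay at the edge of the call. These 4 comparisons and that of WT/p*MAG* share the 3 wild type arrays.

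Compared within a background, p*MAG* came with a difference in *ECM22* of −1.79 in wild type, −0.42 (95% interval −1.02 to 0.18) in Δ*apn1* and −0.10 (−0.70 to 0.50) in Δ*apn1*/p*APN1*. The effect in wild type was larger than that in Δ*apn1* by −1.37 ± 0.40 (SE) on the log2 scale and past the unadjusted thresholds, but with adjusted p = 0.998 over all probe sets (limma). Of the 33 probe sets *ECM22* alone passed the thresholds in this test, and 1.83% of all probe sets did. With each of the 12 arrays left out in turn the interaction was −1.76 to −1.05. Averaged over the 3 backgrounds, the difference with p*MAG* was −0.77 ± 0.16 (adjusted p = 0.0308, limma). *MAG1* signal was uneven among these strains, at 6.14, 1.48 and 6.91 in WT/p*MAG* and 7.17, 2.88 and 1.82 in Δ*apn1*/p*MAG*. The 7.17 was on the array with the *ACT1* gap. In the double-plasmid strain *MAG1* read 3.80, 2.83 and 1.82. Background and *MAG1* level therefore cannot be fully told apart here, and dependence of *ECM22* on *MAG1* level was not tested.

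**Figure D2:**
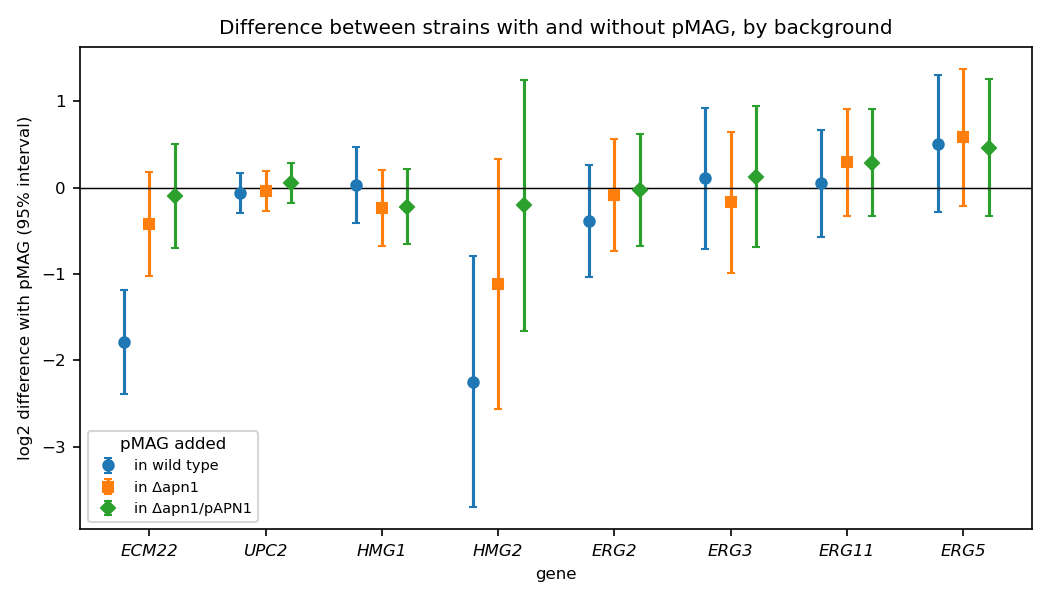
Log2 difference between the strain with p*MAG* and the same background without it, for *ECM22*, *UPC2*, *HMG1*, *HMG2*, *ERG2*, *ERG3*, *ERG11* and *ERG5* (x axis) in wild type (circles), Δ*apn1* (squares) and Δ*apn1*/p*APN1* (diamonds), with 95% intervals from the limma fit (n = 3 against 3). *ECM22* stands at −1.79, −0.42 and −0.10, and of the 8 genes plotted only *ECM22* and *HMG2* have an interval wholly below 0, each in wild type.

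*UPC2*, the paralog of *ECM22*, read below the array medians on every array. Its signal was 0.83 to 1.21 on the 18 arrays, and the lowest array median was 1.63. By strain the mean was 1.08 ± 0.12 (SD) for wild type, 1.02 ± 0.07 for WT/p*MAG*, 1.00 ± 0.15 for Δ*apn1*, 0.96 ± 0.04 for Δ*apn1*/p*MAG*, 0.90 ± 0.04 for Δ*apn1*/p*APN1* and 0.95 ± 0.12 for the double-plasmid strain (n = 3 each). The other strains overlapped wild type except that the Δ*apn1*/p*APN1* arrays lay below it, and the difference between WT/p*MAG* and wild type was −0.06 (95% interval −0.29 to 0.17). With a signal this low, a change in the transcript may not have been detectable.

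Of the *ERG* genes, *ERG2*, *ERG3* and *ERG11* are well-studied targets of Ecm22 or Upc2 and are given for that reason. *ERG2*, the sterol C-8 isomerase, differed from wild type by −0.39 (95% interval −1.04 to 0.26). *ERG3*, the C-5 desaturase, differed by 0.11 (−0.71 to 0.93). *ERG11*, the lanosterol demethylase that azole drugs inhibit, differed by 0.05 (−0.57 to 0.67). None of the 3 was called, and the intervals leave room for changes of up to 1.04 downward in *ERG2*.

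In WT/p*MAG* as a whole, 4 members fell and 1 rose, against 3.86% of all probe sets lower and 2.14% higher. The median difference was −0.05 over the 33 probe sets and 0.01 over all 6504. In 7 members all 3 WT/p*MAG* arrays lay below all 3 wild type arrays (*ECM22*, *HMG2*, *ERG8*, *ERG20*, *ERG10*, *ERG24* and *ERG9*), and in 1 (*ARE1*) above. Over the array 7.38% of probe sets lay wholly below and 6.32% wholly above. The 28 probe sets that were not called differed by −0.49 to 0.51.

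**Figure D3:**
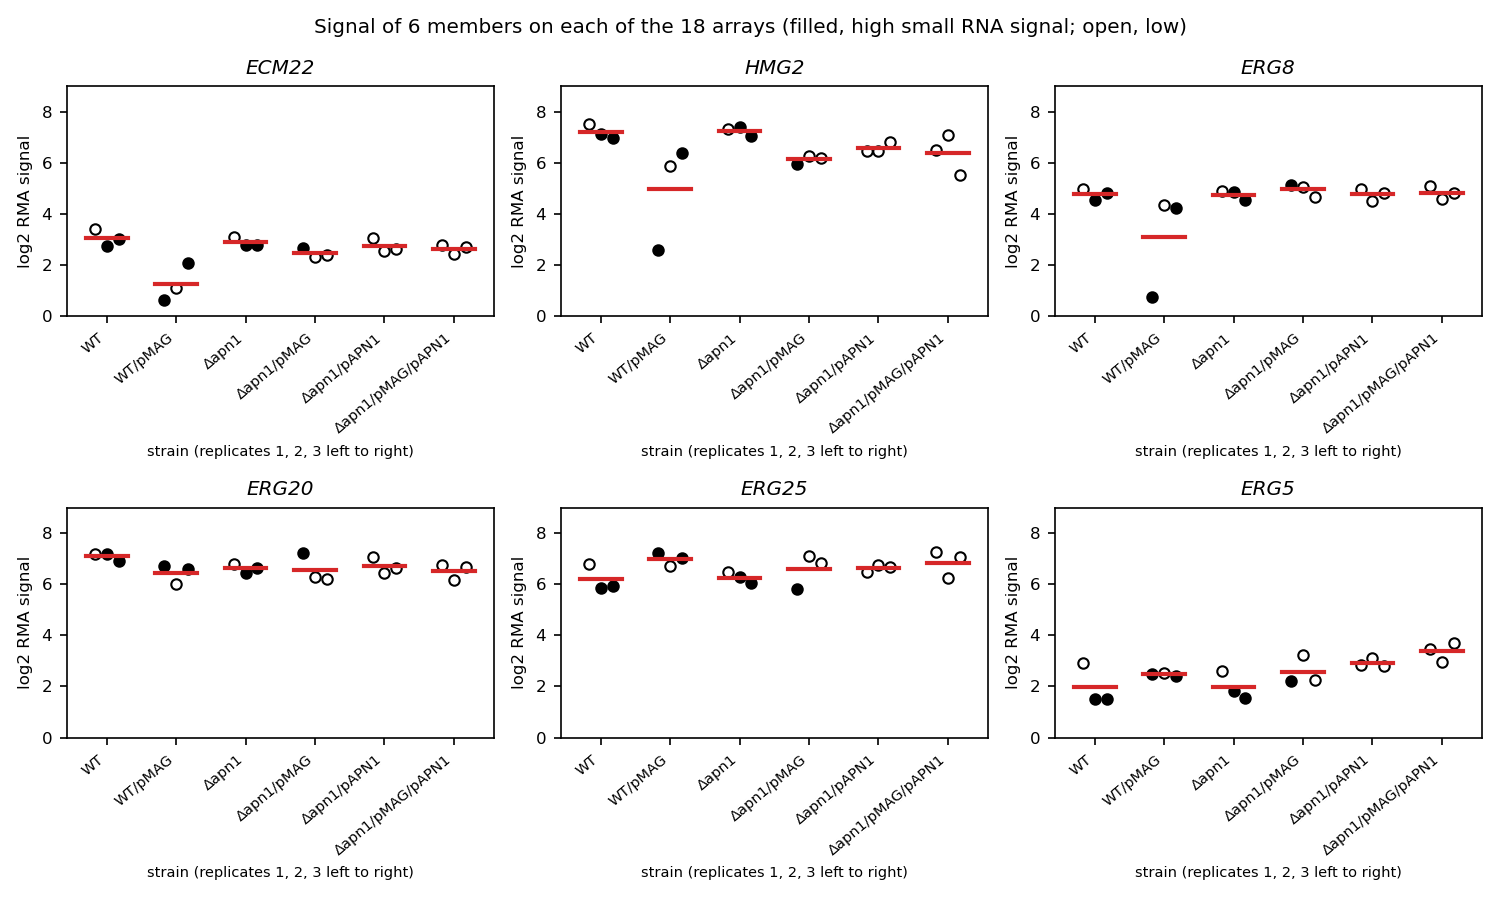
Log2 RMA signal of 6 members on each of the 18 arrays, by strain (x axis), with replicates 1 to 3 from left to right and red bars at the strain means. Filled points are arrays of high small RNA signal and open points those of low. WT/p*MAG* replicate 1 stands far down in *HMG2* (2.58) and *ERG8* (0.73), whereas *ECM22* is low on all 3 WT/p*MAG* arrays, and *ERG5* is highest in the double-plasmid strain.

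Among the enzymes of the mevalonate pathway, *HMG2* fell in WT/p*MAG* and its paralog *HMG1* was not called. *HMG1* and *HMG2* encode HMG-CoA reductase, the rate-limiting enzyme, and Hmg2 is the isozyme whose degradation is regulated by intermediates of the pathway. *HMG2* signal was 7.52, 7.12 and 6.97 on the wild type arrays and 2.58, 5.89 and 6.39 on those of WT/p*MAG*. Δ*apn1* arrays read 7.31, 7.40 and 7.03, and Δ*apn1*/p*MAG* arrays 5.95, 6.25 and 6.18. It was 6.45, 6.46 and 6.80 in Δ*apn1*/p*APN1*, and 6.50, 7.07 and 5.51 in the double-plasmid strain. The 3 strains with p*MAG* or p*APN1* alone lay wholly below wild type, the double-plasmid strain overlapped it, and Δ*apn1* lay within its range.

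The fall of *HMG2* in WT/p*MAG* was −2.25 ± 0.68 (SE, adjusted p = 0.254, limma). WT/p*MAG* replicate 1, at 2.58, carried much of that size, and without it the difference was −1.06 and still called. The differences of −1.07 in Δ*apn1*/p*MAG* (95% interval −2.53 to 0.38) and −0.63 in Δ*apn1*/p*APN1* (−2.08 to 0.82) were not called, in a fit whose spread for *HMG2* includes that array. In fits of only the strains compared, which leave that array out, *HMG2* was called in both. Without Δ*apn1*/p*MAG* replicate 1 and WT/p*MAG* replicate 1, *HMG2* passed the thresholds in Δ*apn1*/p*MAG*. The mean p*MAG* effect was −1.19 ± 0.39 (adjusted p = 0.161, limma).

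*HMG1* showed no such difference. Its strain means ran from 5.48 to 5.76, and WT/p*MAG* differed from wild type by 0.03 (95% interval −0.41 to 0.47), so a fall the size of that in *HMG2* lay outside the interval.

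*ERG8*, phosphomevalonate kinase, read 4.98, 4.54 and 4.80 on the wild type arrays and 0.73, 4.33 and 4.23 on those of WT/p*MAG*. On the arrays of the other 4 strains it read 4.52 to 5.14. The call (−1.68 ± 0.64, adjusted p = 0.374, limma) rested on WT/p*MAG* replicate 1, and without that array the difference was −0.49, which is under 1.5-fold. On WT/p*MAG* replicate 1, *ERG8* and *HMG2* were among 50 probe sets of the whole array that read at least 2 log2 units below both other replicates. The corresponding number was 0 to 15 on 15 of the arrays, 58 on Δ*apn1*/p*APN1* replicate 1 and 75 on Δ*apn1*/p*MAG* replicate 1.

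The remaining mevalonate genes were not called. *ERG10*, acetoacetyl-CoA thiolase, read 8.14, 8.45 and 8.06 in wild type against 7.96, 7.84 and 7.37 in WT/p*MAG*, without overlap. The difference of −0.49 ± 0.16 had an unadjusted p under 0.05 (adjusted p = 0.3, limma) but stayed under 1.5-fold. *ERG13*, HMG-CoA synthase, lay above wild type on all arrays of Δ*apn1*/p*APN1* (difference 0.53) and the double-plasmid strain (0.55). Neither was called, and with a term for arrays of high small RNA signal they were 0.14 and 0.16. Mevalonate kinase (*ERG12*, 4 probe sets), mevalonate diphosphate decarboxylase (*MVD1*) and isopentenyl diphosphate isomerase (*IDI1*) passed the thresholds in no strain. The *ERG12* probe sets were dim, and on 1 of them every array was under the lowest array median.

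From farnesyl diphosphate to lanosterol, *ERG20* was the only gene called. It encodes farnesyl diphosphate synthase, whose product also feeds dolichol, ubiquinone and protein prenylation. Its signal was 7.19, 7.18 and 6.91 in wild type against 6.70, 6.01 and 6.60 in WT/p*MAG*, a difference of −0.66 ± 0.27 (adjusted p = 0.394, limma). All 5 strains had lower means than wild type, with differences of −0.47 for Δ*apn1*, −0.53 for Δ*apn1*/p*MAG*, −0.39 for Δ*apn1*/p*APN1* and −0.56 for the double-plasmid strain, none of them called. These 5 differences share the wild type arrays. The call in WT/p*MAG* was lost without WT replicate 1, WT replicate 2 or WT/p*MAG* replicate 2, with differences of −0.61 to −0.44. *ERG9* (squalene synthase), *ERG1* (squalene epoxidase, the target of terbinafine) and *ERG7* (lanosterol synthase) were called in no strain.

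From lanosterol to zymosterol, *ERG25* rose in WT/p*MAG*. It encodes the C-4 methyl sterol oxidase, which acts with Erg26 and Erg27 on the scaffold Erg28. Its signal was 6.78, 5.86 and 5.95 in wild type against 7.21, 6.73 and 7.01 in WT/p*MAG*, with overlap at wild type replicate 1. The difference was 0.78 ± 0.33 (adjusted p = 0.423, limma). The call was lost in 4 of the 6 fits that left out an array, without WT replicate 2 (0.62), WT replicate 3 (0.66), WT/p*MAG* replicate 1 (0.67) or WT/p*MAG* replicate 3 (0.77). Wild type replicate 1 was the wild type array of low small RNA signal, and on the low arrays alone the difference was −0.06, with 1 array per strain. On the high arrays, with 2 per strain, it was 1.21 (adjusted p = 0.0505, limma). A term for array class left the difference at 0.78 and called, as it must where both strains hold 2 high arrays and 1 low.

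Other genes of these steps showed scattered values. *ERG24*, the C-14 reductase, was lower on all WT/p*MAG* arrays (−0.48, adjusted p = 0.401, limma) but under 1.5-fold. *ERG28* read 1.87 on Δ*apn1* replicate 1 against 4.24 and 4.32 on replicates 2 and 3, and its Δ*apn1* difference of −0.98 (95% interval −2.15 to 0.18) was not called. *ERG26*, the C-3 dehydrogenase, was among the steadiest members, with 4.12 to 4.58 over the 18 arrays. *ERG11* and *ERG27*, the 3-keto reductase, were called in no strain.

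In the last steps, *ERG5* rose in the strains with p*APN1*. *ERG5* encodes the C-22 desaturase, a cytochrome P450 that comes just before the final reduction by Erg4. Its signal was 2.90, 1.52 and 1.5 on the wild type arrays, 2.51, 2.51 and 2.42 for WT/p*MAG*, and 2.61, 1.81 and 1.54 for Δ*apn1*. The values were 2.22, 3.24 and 2.25 with Δ*apn1*/p*MAG*, 2.84, 3.11 and 2.80 for Δ*apn1*/p*APN1*, and 3.48, 2.95 and 3.71 for the double-plasmid strain. The highest wild type array overlapped Δ*apn1*/p*APN1* but not the double-plasmid strain. WT replicates 2 and 3 and Δ*apn1* replicate 3 read under the lowest array median (1.63), so the size of the rise is less certain.

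The difference from wild type was 0.95 ± 0.37 in Δ*apn1*/p*APN1* (adjusted p = 0.671, limma) and 1.41 ± 0.37 in the double-plasmid strain (adjusted p = 0.354, limma). These were the only calls among the 33 probe sets in those strains. Over the array 2.51% of probe sets were called higher and 0.8% lower in Δ*apn1*/p*APN1*, and 1.81% higher and 1.58% lower in the double-plasmid strain. The mean p*APN1* effect, which uses no wild type array, was 0.87 ± 0.26 (adjusted p = 0.867, limma), again the only member called, where 0.523% of all probe sets were called higher. Added to Δ*apn1*, p*APN1* came with 0.93 (95% interval 0.14 to 1.72), and added to Δ*apn1*/p*MAG* with 0.81 (0.02 to 1.61).

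*ERG5* signal also moved with small RNA signal. In the 4 strains with arrays of both kinds, the low arrays exceeded the high ones by 1.39 for wild type, 0.05 for WT/p*MAG*, 0.94 for Δ*apn1* and 0.52 for Δ*apn1*/p*MAG*. With a term for array class in the model the difference was 0.46 in Δ*apn1*/p*APN1* (no longer called), 0.92 in the double-plasmid strain (still called) and 0.51 for the mean p*APN1* effect (under 1.5-fold and no longer called). On low arrays alone the 3 values were 0.02, 0.48 and 0.47, none of them called. Since p*APN1* strains had no array of high small RNA signal, array class and p*APN1* cannot be fully told apart. Nor can *APN1* be told apart from the plasmid that carried it and its higher *LEU2* signal, as no strain held that plasmid without *APN1*. Without WT replicate 2, WT replicate 3 or Δ*apn1*/p*APN1* replicate 2 the call in Δ*apn1*/p*APN1* was lost (0.71 to 0.85). Without replicate 1 of the double-plasmid strain, the p*APN1* array of lowest *APN1* signal, the difference in that strain was 1.36 and still called.

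**Figure D4:**
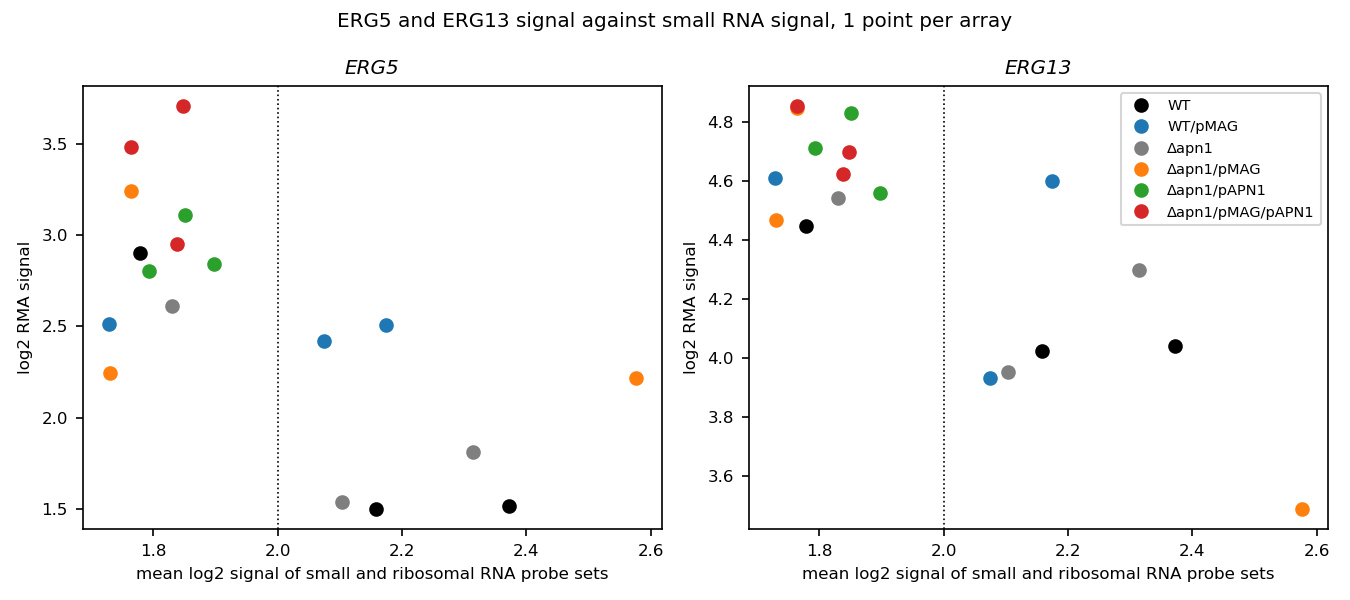
Log2 RMA signal of *ERG5* (left) and *ERG13* (right) against the mean log2 signal of 69 small and ribosomal RNA probe sets, 1 point per array, coloured by strain. The dotted line at 2 separates the 7 arrays of high from the 11 of low small RNA signal. All points of the p*APN1* strains (green and red) lie left of it, where the signal of both genes was higher in each of the 4 strains with arrays on both sides.

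The same behaviour was seen in other members and over the array. In 8 of the 33 probe sets (24.2%), *ERG5* included, the low arrays were higher in all 4 strains, against 19.7% of all probe sets. In 1 (3.03%) they were lower, against 12.0% of all. The 8 were *ERG13*, *HMG2*, 1 *ERG12* probe set, *MVD1*, *IDI1*, *ERG9*, *ERG24* and *ERG5*. That *ERG12* probe set was under the lowest array median on all 18 arrays. The 1 that was lower was another *ERG12* probe set (−0.58 to −0.33). For *ERG13* the excess was 0.42, 0.34, 0.42 and 1.17 in the 4 strains. In the mean p*APN1* effect 25 of the 33 probe sets were positive, with a median of 0.14, against 54.9% of all probe sets and a median of 0.02. With the class term 20 of the 33 were positive, with a median of 0.02, against 48.1% of all probe sets and a median of −0.01.

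The rest of the last steps was not called. In *ERG4*, the C-24(28) reductase, the 3 arrays of the double-plasmid strain (7.77, 6.95 and 6.92) lay above wild type (6.78, 6.83 and 6.50), with a difference of 0.51 (95% interval −0.04 to 1.06). *ERG6* (the C-24 methyltransferase), *ERG2* and *ERG3* were called in no strain. Across the members, all arrays lay above wild type in 4 probe sets and below in 3 in Δ*apn1*/p*APN1*, where 12% and 5.35% of all probe sets did. In the double-plasmid strain it was 5 above and 2 below, where 7.44% and 6.7% did.

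The partners that supply electrons or bind heme for the sterol oxidases differed little between strains. *NCP1* (cytochrome P450 reductase), *CYB5* (cytochrome b5) and *DAP1* (a heme-binding partner of Erg11) were called in no strain, and their differences ran from −0.32 to 0.17.

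The acyltransferases that store sterol as ester were not called either. *ARE1* read 4.27, 3.90 and 3.62 in wild type, 4.31, 4.52 and 4.29 on the WT/p*MAG* arrays and 4.41, 4.36 and 4.66 in the double-plasmid strain. Both latter strains lay above wild type, by 0.44 (95% interval −0.24 to 1.13) and 0.55 (−0.13 to 1.24). With the class term the latter was 0.18. *ARE2* was under the lowest array median on all 18 arrays, so the pair could not be compared.

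Loss of Apn1 alone, and with Mag expressed, gave no call among the members. In Δ*apn1* 0 of 33 were called, where 0.431% of all probe sets were, and 1 (*ERG26*, −0.27) had an unadjusted limma p under 0.05. In Δ*apn1*/p*MAG* 0 of 33 were called, where 3.38% of all were, and 0 had an unadjusted limma p under 0.05. Differences ran from −0.98 to 0.23 in the first and from −1.07 to 0.59 in the second. The second count depended on Δ*apn1*/p*MAG* replicate 1. Without it 4 members passed (*ECM22*, *ERG20*, *ERG25* and *ARE1*), and without it and WT/p*MAG* replicate 1 there were 5, *HMG2* being added. The count also depended on wild type arrays, being 2 without WT replicate 1 (*ERG11* and *ERG5*) and 1 without WT replicate 2 (*ECM22*). The calls among all probe sets were 220 in the reported fit, and 356, 371, 308 and 178 in these fits. Without Δ*apn1*/p*MAG* replicate 2 they were 357, with 0 members.

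Across the 3 backgrounds, the mean p*MAG* effect was called lower in 2 members, *ECM22* and *HMG2*, where 1.58% of all probe sets were lower. At an adjusted p under 0.05 it was 1 (*ECM22*), where 1.28% of all probe sets were. The median was −0.02 over the 33 probe sets and 0.00 over all. At an unadjusted p under 0.05 but under 1.5-fold stood *ERG10* (−0.28), *ERG25* (0.43) and *ERG5* (0.52).

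Genes around the pathway were listed in 8 groups of 64 genes, of which 63 were measured by 76 probe sets. Of these, 0 were called higher and 2 lower in WT/p*MAG*, and 0 in either direction in Δ*apn1*. The counts were 0 higher and 3 lower for Δ*apn1*/p*MAG*, 3 higher and 0 lower for Δ*apn1*/p*APN1*, and 1 higher and 2 lower for the double-plasmid strain. These counts stand beside the shares of all probe sets already given for each strain.

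Among the sterol uptake and anaerobic cell wall genes that Upc2 activates, *TIR1* fell in both strains with p*MAG* alone. *TIR1*, a cell wall mannoprotein, read 8.48, 9.35 and 8.42 in wild type, 8.01, 7.53 and 7.41 for WT/p*MAG*, and 6.40, 7.85 and 7.41 for Δ*apn1*/p*MAG*. In Δ*apn1* it read 7.24 on replicate 1, the array of low small RNA signal, and 9.72 and 9.04 on replicates 2 and 3. The difference was −1.10 for WT/p*MAG* (adjusted p = 0.457, limma) and −1.53 for Δ*apn1*/p*MAG* (adjusted p = 0.495), and −0.98 as the mean p*MAG* effect (adjusted p = 0.105, limma). That mean effect was −0.94 and still called with the class term, but −0.32 on low arrays alone. The call in WT/p*MAG* was lost without WT replicate 2 (−0.80), WT/p*MAG* replicate 2 (−1.03) or WT/p*MAG* replicate 3 (−0.98), and that in Δ*apn1*/p*MAG* held in all 6 fits without an array. *DAN4*, of the same family of genes, fell in Δ*apn1*/p*MAG* by 0.68, a call lost without WT replicate 2 (−0.64) or Δ*apn1*/p*MAG* replicate 2 (−0.46). *AUS1*, a sterol importer, was called higher by 2 of its probe sets in Δ*apn1*/p*APN1* (0.71 and 0.62), both of a type that can share sequence with other transcripts. Neither was called with the class term (0.56 and 0.62), and without Δ*apn1*/p*APN1* replicate 2 they were 0.35 and 0.36.

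Of the other regulators, 3 were called in the double-plasmid strain. *ROX1*, the heme-induced repressor of hypoxic genes, read 1.37, 1.22 and 1.66 in wild type and 2.08, 2.14 and 2.45 in that strain, a difference of 0.80 ± 0.17 (adjusted p = 0.159, limma). *HAP1*, the heme-responsive activator, and *SUT1*, a regulator of sterol uptake, were lower, with differences of −0.70 and −0.69. *HAP1* was called through 1 of its probe sets only. With the class term *ROX1* (0.78) and *HAP1* (−0.71) stayed called, whereas *SUT1* was −0.39 and no longer called, and −0.32 on low arrays alone. *SPT23*, an activator of the fatty acid desaturase gene, was higher in Δ*apn1*/p*APN1* (0.69). Its wild type values (1.47, 1.13 and 1.20) and those of *ROX1* on WT replicates 1 and 2 lay under the lowest array median (1.63).

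In sterol transport, *NCR1* and *NPC2*, the yeast counterparts of the Niemann-Pick type C genes, were each called lower once. *NCR1* differed by −0.82 in WT/p*MAG* through 1 of its probe sets, a call lost without WT replicate 1 (−0.37), WT/p*MAG* replicate 1 (−0.74) or WT/p*MAG* replicate 3 (−0.72). That probe set, of the type that can share sequence, read 2.97, 1.61 and 1.62 in wild type and 1.08, 1.60 and 1.05 in WT/p*MAG*. Of these values all but the 2.97 lay under the lowest array median (1.63). *NPC2* differed by −0.81 in Δ*apn1*/p*MAG*, and that call was lost without WT replicate 1 (−0.66) or Δ*apn1*/p*MAG* replicate 1, the array with the *ACT1* gap (−0.40). No gene of HMG-CoA reductase turnover, ester hydrolysis and acetylation, the isoprenoid branches, heme synthesis, or the cytochrome b5 reductases with *ERG29* passed the thresholds in any strain. For the mean p*MAG* effect, *HEM2*, the second enzyme of heme synthesis, and another *NCR1* probe set had adjusted p-values of 0.0428 and 0.0453 in the limma fit, at −0.36 each and so under 1.5-fold.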

How the data were processed

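The deposited values were log2 signals that the authors made from the array scans by robust multi-array averaging (RMA, version not stated in the sources used here), 9335 probe sets on 18 arrays, and were used as deposited. Strains came from the sample labels. Left out were 60 control probe sets, 328 with several gene names and 2443 with none, which left 6504 (5656 genes). Each strain was given a mean in limma 3.58.1 (R 4.3.3) over all 18 arrays (12 residual degrees of freedom), with moderated variances, Benjamini-Hochberg adjustment and two-sided tests, and the fit was tested on simulated data. No column without a sample was used. The methods' thresholds were an unadjusted p under 0.05 and 1.5-fold. RMA values carry no counting depth, so the 3 arrays per strain limit the precision. The methods state biological triplicates. Array medians were 1.63 to 1.72, and correlations between arrays were 0.916 to 0.991. RMA can compress low signals, so the size of folds of dim probe sets is less certain, and levels were not compared between probe sets.

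Members and lists were chosen with earlier results of these data known. Named in full were *ECM22*, *UPC2* and members called in 2 or more strains (*ERG5*), then the other members called, paralog pairs side by side, and the rest by range. Listed names were matched through current symbols and synonyms (*DAN2* as *PAU23*, *YSP1* as *LAM1*), and *DAN3* was not matched. Replicate numbers of wild type and Δ*apn1* deviated together (correlations of deviations of 0.372, 0.331 and 0.369), and no other pair of strains met this rule. The reported fit did not use this pairing, which entered only through the replicate block among the alternatives. In both strains replicate 1 was of low and replicates 2 and 3 of high small RNA signal. The correlations therefore cannot tell paired cultures from a shared array class. Alternatives tried were the methods' test, the compared strains alone, the replicate block, other normalizations, no dim probe sets, array weights, another variance prior, all probe sets, an adjusted threshold, and each array left out. Terms for array class, subsets by class, 2 doubted arrays left out, and these settings for genes of the related lists were chosen after seeing the data.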

Additional observations from a re-analysis of the deposited data

Results flagged for a closer look

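The p*MAG* difference of *ECM22* was larger in wild type than in Δ*apn1* by −1.37 on the log2 scale (SE 0.40, adjusted p = 0.998, limma, n = 3 arrays per strain), and the test of the difference between the 2 backgrounds drew attention to it. All 3 WT/p*MAG* arrays lay below all 3 wild type arrays, and all 3 Δ*apn1*/p*MAG* arrays lay below all 3 Δ*apn1* arrays. With each of the 12 arrays of these strains left out in turn the interaction kept its sign and an unadjusted p under 0.05, and its adjusted p ran from 0.058 to 1.00. *MAG1* signal was uneven among the WT/p*MAG* and Δ*apn1*/p*MAG* arrays, and its part in this difference was not tested.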

How the results depend on the processing

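*ECM22* in WT/p*MAG* passed the unadjusted thresholds in all 13 alternatives (and in all 6 fits without 1 array), with adjusted p-values of 3.15e-04 to 0.332. The count of members called in WT/p*MAG* was 5 and became 1 at an adjusted p, 4 with only the strains compared (*ERG8* lost) and 6 without the 2 doubted arrays (*ERG8* lost, *ERG4* and *ERG10* added). The count in Δ*apn1* was 0 and became 1 with the class term (*ERG28*). In Δ*apn1*/p*MAG* it was 0 and became 2 with only the strains compared or a repeated quantile normalization, 1 with the replicate block, median centring or a trended robust prior, 4 with array weights and 5 without the 2 doubted arrays. In Δ*apn1*/p*APN1* it was 1 and became 2 with only the strains compared, 3 with array weights, and 0 at an adjusted p or with the class term. In the double-plasmid strain it was 1 and became 2 with only the strains compared or quantile normalization, 6 with array weights and 0 at an adjusted p. Calls among all probe sets moved too. In Δ*apn1*/p*MAG* they went from 220 to 186 with only the strains compared, 442 with array weights and 371 without the doubted arrays. In Δ*apn1*/p*APN1* they went from 215 to 280 with only the strains compared and 366 with array weights. In the double-plasmid strain they went from 221 to 250 and 420. The mean p*MAG* count of 2 became 4 with array weights and 1 at an adjusted p, and the mean p*APN1* count of 1 became 0 at an adjusted p or with the class term. The F-test count of 1 (*ECM22*) became 2 with array weights (*ERG5* added) and 0 with the methods' test, the replicate block, all probe sets, the class term or without the doubted arrays. The replicate block changed no other count, and the block fitted to the 6 arrays of Δ*apn1* and wild type alone left the Δ*apn1* count at 0. Without 1 array at a time the counts ran from 3 to 5 in WT/p*MAG*, 0 to 1 in Δ*apn1* (1 without Δ*apn1* replicate 2 or 3, *ERG28*), 0 to 4 in Δ*apn1*/p*MAG*, 0 to 2 in Δ*apn1*/p*APN1*, 1 to 4 in the double-plasmid strain (4 without WT replicate 1), 2 to 3 for mean p*MAG*, 1 to 2 for mean p*APN1* and 0 to 1 for the F-test. *ERG25* in WT/p*MAG* turned to −0.057 on the arrays of low small RNA signal alone, where each strain had 1 array. The cause of these changes was not tested.

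The 3 arrays per strain limit all of these comparisons, and only *ECM22* among the members passed an adjusted p in the reported fit. With array weights *ERG5* in the double-plasmid strain (adjusted p = 0.0489, limma) and *HMG2* in the mean p*MAG* effect (0.0356) did so too. *UPC2*, *ARE2* and 1 *ERG12* probe set were under the lowest array median throughout.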
